A study of Arabidopsis thaliana with 12 samples.

Results

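Whole Arabidopsis thaliana seedlings exposed for 24 h to volatile compounds released by the fungus Tolypocladium inflatum GT22 were compared with control seedlings of the same time. The comparison covers every row of the 24 h table that carries a gene name and a mean of both groups of at least 1 FPKM, which left 17836 of 26605 rows. FPKM expresses the fragments of a transcript relative to its length and to the size of the library. The series, which set out to trace the transcript response to the volatiles, also sampled seedlings at 3 and 48 h, and its 3 tables hold 80066 rows. The labels give 2 libraries for the 24 h volatile seedlings, 2 for the 24 h control seedlings and 12 in all. They name no genotype, age or growth medium, and do not say what the controls were exposed to or whether the libraries came from separate plates. The time of the table is known from its name alone, and no library is tied to it by the labels. Each group has a single FPKM value per row, so the spread between its libraries cannot be seen, the sequencing depth is unknown and no SD can be given.

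The authors' deposited table gives each tested row a p-value, its adjusted form (q-value) and the statistic behind them, and "rose" and "fell" are used here of rows with a q-value under 0.05. The log2 fold change is the volatile value over the control value. The error beside it is the size of that fold change divided by the deposited statistic. Read as a standard normal deviate, the statistic gives a larger p-value than the deposited one in 99.5% of rows, so the printed error can be wider than the one behind the call. A whole seedling mixes roots and shoots, and a lower level in it can come from fewer cells of a type or from less mRNA per cell, which cannot be told apart.

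Plants sense oxygen through the N-degron pathway. Plant cysteine oxidases use oxygen to oxidise the exposed cysteine of group VII ethylene response factors (ERF-VII), which marks these transcription factors for destruction. When oxygen falls, the factors persist and switch on a small core of genes for fermentation, sugar use and nitric oxide removal. The oxidase PCO1 and the repressor HRA1 belong to that core and damp it in return. The small heat shock proteins, thionins and defensins that appear further on are inducible families of stress and defence.

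Most of the transcriptome moved little at 24 h. A q-value under 0.05 was reached by 24 of 17795 tested rows, which is 0.135% of them. Of these, 8 rose (0.045%) and 16 fell (0.0899%). Fold changes of the 17797 rows with a value above 0 in both groups had a median of -0.02 on the log2 scale and quartiles of -0.15 and 0.10. The 24 called rows share the smallest p-value in the authors' deposited table, 5e-05, and the same q-value of 0.0403, so neither ranks them. The next p-value in the authors' deposited table, 0.0001, had a q-value of 0.0743 and was held by 2 of the rows kept. An unadjusted p-value under 0.05 was held by 528 rows (2.97%), of which 173 (0.972%) were higher and 355 (1.99%) lower under the volatiles. Among those 528 rows, 19 stood at a log2 fold change of 1 or more and 42 at -1 or less.

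**Figure D1:**
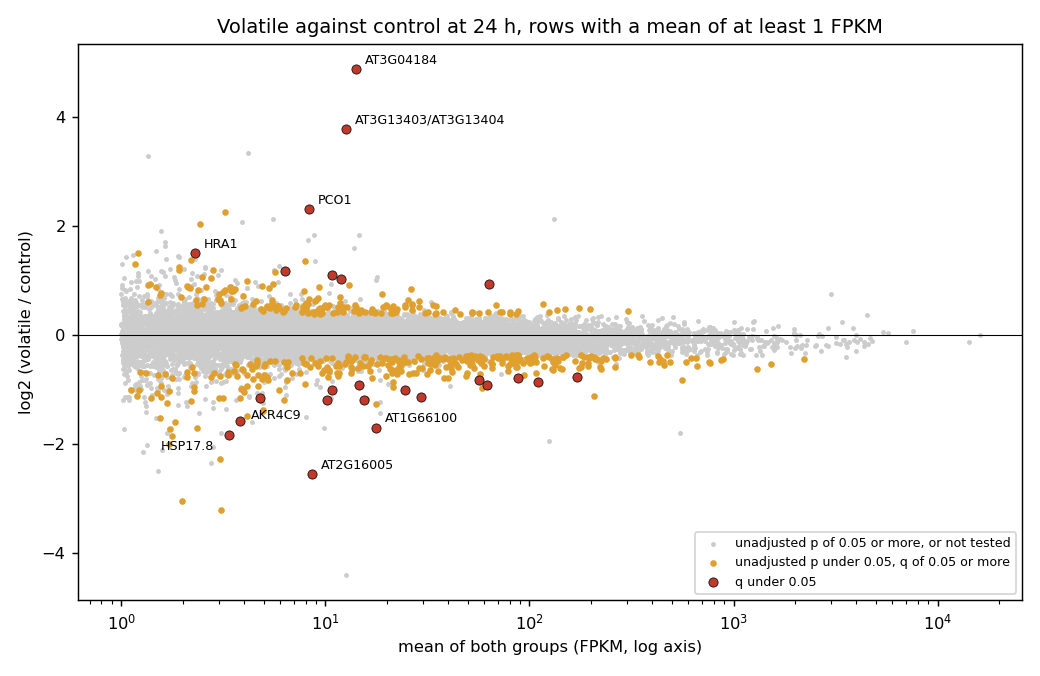
Log2 fold change, volatile over control, against the mean of both groups in FPKM on a log axis, for each row kept at 24 h. Large red points are the 24 rows with a q-value under 0.05, orange points those with an unadjusted p-value under 0.05, and grey points the rest; AT3G04184, at 4.88, lies highest among the red points and AT2G16005, at -2.56, lowest.

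The median fold change was lower in abundant rows. The median log2 fold change was 0.01 in the 1328 rows with a mean of 1 to 2 FPKM and -0.10 in the 537 rows at 300 FPKM or more. At an unadjusted p-value under 0.05, 6 rows were higher and 52 lower at 100 to 300 FPKM, and 11 were higher and 20 lower at 1 to 2 FPKM. Of the 8 ranges of abundance only that of 5 to 10 FPKM had more rows higher than lower at that level, 45 against 27. By transcript length the medians lay between -0.05 and 0.00. The part of this shift in the lower levels of the abundant genes named further on was not tested.

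Of the 8 rows that rose 3 are genes of the low oxygen response. PCO1, which oxidises the ERF-VII cysteine and so senses oxygen, stood at 13.9 FPKM under the volatiles, against 2.79 FPKM in controls. Its log2 fold change was 2.31 ± 0.41, a 4.96-fold difference. HRA1, a trihelix transcription factor that restrains the ERF-VII factor RAP2.12, stood at 3.40 FPKM under the volatiles, against 1.20 FPKM in controls (log2 fold change 1.50 ± 0.37). PDC1, the pyruvate decarboxylase that opens ethanol fermentation, stood at 14.7 FPKM under the volatiles, against 6.84 FPKM in controls (log2 fold change 1.11 ± 0.30). These 3 genes lie on different chromosomes, PCO1 at chr5:4898737-4900581, HRA1 at chr3:3096415-3098071 and PDC1 at chr4:15952289-15954771 (TAIR10, as in the table).

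Stretches around the start of these genes are shown because ERF-VII factors act through an element that begins AAACCA and has GC after 3 further bases. The search allowed any bases at those 3 places, so a match can differ from the element there. Each run spans 250 bases before to 50 bases from the gene start that RefSeq annotates on TAIR10.1, in the direction of the gene, with AAACCA or its reverse complement TGGTTT in capitals. ADH1 is added as a member of the same response with a match of this longer element. Those starts differ from the bounds in the table.
PCO1: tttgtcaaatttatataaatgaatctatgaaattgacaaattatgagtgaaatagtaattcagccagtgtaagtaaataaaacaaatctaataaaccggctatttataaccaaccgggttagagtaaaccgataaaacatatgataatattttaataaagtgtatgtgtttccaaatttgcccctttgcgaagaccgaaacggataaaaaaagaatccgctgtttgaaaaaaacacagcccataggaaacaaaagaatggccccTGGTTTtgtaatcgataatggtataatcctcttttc
PDC1: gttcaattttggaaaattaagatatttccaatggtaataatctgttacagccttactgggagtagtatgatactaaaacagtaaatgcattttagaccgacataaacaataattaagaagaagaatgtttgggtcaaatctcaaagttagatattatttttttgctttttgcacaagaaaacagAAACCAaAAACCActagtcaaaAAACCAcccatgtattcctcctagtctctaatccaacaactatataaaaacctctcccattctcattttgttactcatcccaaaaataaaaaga
HRA1: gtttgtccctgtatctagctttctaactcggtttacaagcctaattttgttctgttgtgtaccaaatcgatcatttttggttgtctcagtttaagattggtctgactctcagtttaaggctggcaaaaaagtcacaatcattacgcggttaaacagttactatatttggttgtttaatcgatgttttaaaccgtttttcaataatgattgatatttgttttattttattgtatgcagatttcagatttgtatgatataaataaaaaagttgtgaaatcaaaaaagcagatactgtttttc
ADH1: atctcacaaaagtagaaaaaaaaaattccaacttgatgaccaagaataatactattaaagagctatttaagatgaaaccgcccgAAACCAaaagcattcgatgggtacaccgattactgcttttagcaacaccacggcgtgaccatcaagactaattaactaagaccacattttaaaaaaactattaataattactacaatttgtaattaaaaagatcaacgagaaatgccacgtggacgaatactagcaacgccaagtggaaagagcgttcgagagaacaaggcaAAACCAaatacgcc

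PCO1 holds 1 match of the longer element, on the reverse strand and just inside the annotated transcript (chr5:4898391-4898690, plus strand). PDC1 holds 3 AAACCA matches but not the longer element (chr4:15954754-15955053, minus strand), and HRA1 holds neither (chr3:3098368-3098667, minus strand). ADH1 holds 2 AAACCA matches, 1 of them extended (chr1:28975005-28975304, plus strand). Searched on both strands, the longer element was in 7 of the 36 promoters of low oxygen response genes kept (19.4%) and in 286 of 27443 promoters of protein-coding genes (1.04%). The shorter AAACCA, which the longer element contains, was in 22 of the 36 (61.1%) and in 32.0% of all promoters. A match says that the letters are there, not that a factor binds them.

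The low oxygen list holds 46 core genes of the response, of which 36 had a row of their own at 1 FPKM or more, 4 lay below that level and 6 sat in rows merged with a neighbour. Their median log2 fold change was 0.33, against -0.02 over all rows kept, and it was 0.17 among members with a mean of at least 5 FPKM. Of the 36 members 3 rose and 0 fell, which is 8.33% of them against the 0.135% of all tested rows. An unadjusted p-value under 0.05 was held by 11 members on the higher side (30.6%, against 0.972% of all tested rows) and by 1 on the lower side (1.99% of all tested rows). The list was drawn up with the fold changes of PCO1, HRA1 and PDC1 known, so these shares are a description. With the deposited statistic read as a standard normal deviate, PCO1 stays called and HRA1 and PDC1 do not.

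Among enzymes of fermentation and sugar use, ADH1, which turns acetaldehyde into ethanol after PDC1, had 7.85 FPKM under the volatiles and 3.52 FPKM in controls. The sucrose synthase SUS4 had 2.72 FPKM under the volatiles and 1.46 FPKM in controls. Both had an unadjusted p-value under 0.05 (0.0139 and 0.0022 in the authors' deposited table) but q-values above the threshold. The other 8 measured members of the list of fermentation enzymes and sucrose synthases had log2 fold changes between -0.30, held by SUS3, and 0.17, held by SUS1, each with an unadjusted p-value of at least 0.05. The lactate dehydrogenase LDH had 24.0 FPKM under the volatiles and 22.2 FPKM in controls. In that list as a whole 1 of 11 members rose, against 0.045% of all tested rows, and 0 fell. The 1 is PDC1, which the low oxygen list counts as well. PDC2 shares a row with a neighbouring gene that stood at 30.5 FPKM under the volatiles and 27.3 FPKM in controls.

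Among signalling members, HB1, a phytoglobin that removes nitric oxide, had 17.1 FPKM under the volatiles and 9.10 FPKM in controls (log2 fold change 0.91 ± 0.29, unadjusted p = 0.00015 in the authors' deposited table). A second cysteine oxidase, PCO2, had 4.39 FPKM under the volatiles and 2.50 FPKM in controls. CYP707A3, which inactivates abscisic acid by hydroxylation, had 6.80 FPKM under the volatiles and 3.74 FPKM in controls. The acyl desaturase SAD6 had 3.93 FPKM under the volatiles and 1.72 FPKM in controls. AT3G27220, a kelch repeat protein in the annotation, had 6.35 FPKM under the volatiles and 3.40 FPKM in controls. All 11 members on the higher side were low in controls, between 1.20 and 9.10 FPKM, and stood between 2.72 and 17.1 FPKM under the volatiles. The member on the lower side, PHI-1, a phosphate-induced cell wall protein, had 12.2 FPKM under the volatiles and 17.4 FPKM in controls.

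Other members of the core stayed within 0.2 of 0 on the log2 scale, 12 of the 36 in number. They include SUS1 at 11.3 FPKM under the volatiles and 9.98 FPKM in controls, and the NADPH oxidase RBOHD at 15.9 FPKM under the volatiles and 14.1 FPKM in controls. Among the regulators themselves, RAP2.12 had 101 FPKM under the volatiles and 105 FPKM in controls, and RAP2.2, another ERF-VII factor, had 96.5 FPKM under the volatiles and 88.1 FPKM in controls. ERF73, also of that group, had a log2 fold change of 0.28 ± 0.39, and ZPR2, a small protein degraded by the same pathway, had 0.997 FPKM under the volatiles and 2.02 FPKM in controls (log2 fold change -1.02 ± 1.21). PRT6, the ligase that ends the N-degron pathway, had 9.33 FPKM under the volatiles and 10.8 FPKM in controls. Of the 9 measured members of the ERF-VII and N-degron list 0 rose, 0 fell and 0 had an unadjusted p-value under 0.05. LBD41, a core member often used as a marker, shared a row with RAD23C that stood at 60.9 FPKM under the volatiles and 54.0 FPKM in controls, so its own level cannot be read.

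**Figure D2:**
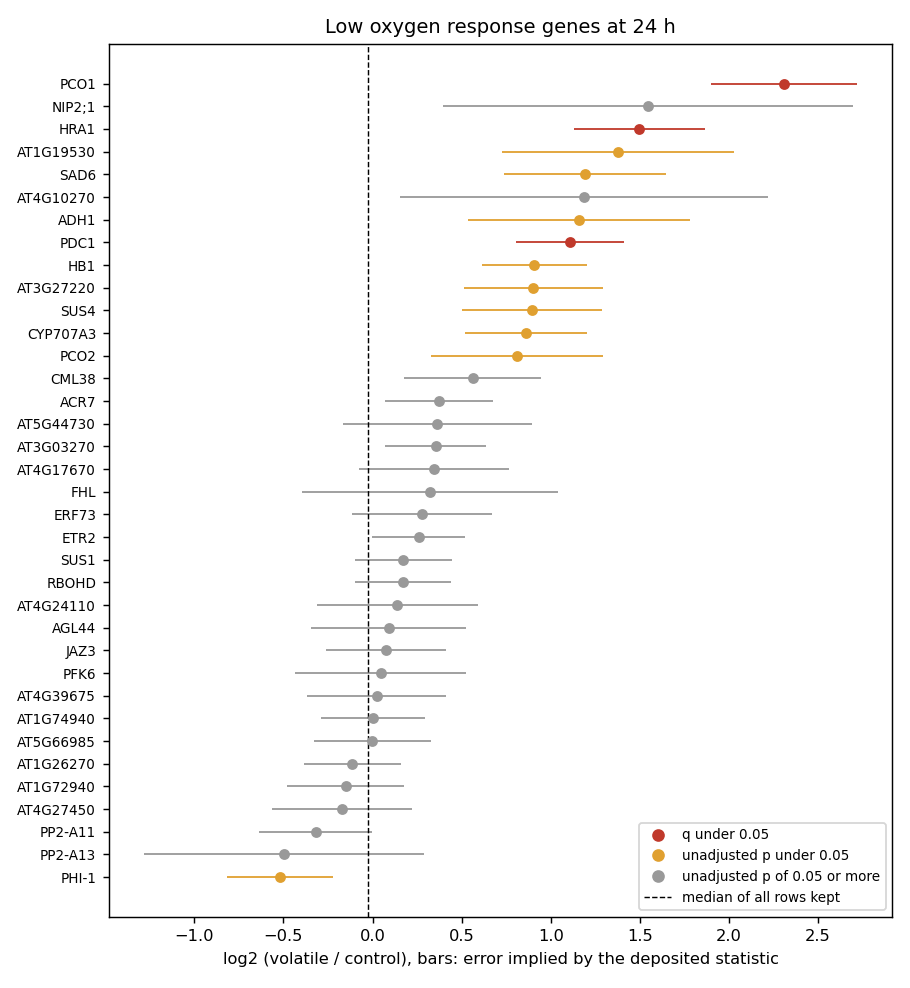
Log2 fold change, volatile over control, at 24 h for the 36 low oxygen response genes kept. Bars are the error implied by the deposited statistic and the dashed line is the median of all rows kept; PCO1, HRA1 and PDC1 in red rose, 8 further members in orange stand to the right at an unadjusted p-value under 0.05, and PHI-1 is the orange point at the left.

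The other 5 rows that rose lie outside that list. AT3G04184, an uncharacterised gene, showed the highest log2 fold change of the table's rows kept, 4.88 ± 0.61, with 27.4 FPKM under the volatiles and 0.933 FPKM in controls. Its annotated gene is 162 bases long (chr3:1100085-1100246, minus strand), whereas its row spans chr3:1098827-1101733. The same stretch holds AT3G04181, with 1.07 FPKM under the volatiles and 0.763 FPKM in controls, and the annotated RNAs AT3G01405 and AT3G01425, which have no row. The table cannot say which of these transcripts supplied the reads. A merged row of AT3G13403, a defensin-like peptide gene, and AT3G13404 stood at 23.5 FPKM under the volatiles, against 1.71 FPKM in controls (log2 fold change 3.78 ± 0.44). It covers chr3:4358179-4359007, where the 2 genes overlap on the same strand.

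AT4G32480, annotated with a domain of unknown function, had 8.82 FPKM under the volatiles and 3.89 FPKM in controls (log2 fold change 1.18 ± 0.33). A merged row of AT1G62880, of the cornichon family of cargo receptors, and AT1G62886, a subunit of a repair and transcription complex, had 16.1 FPKM under the volatiles and 7.87 FPKM in controls. AT5G21940 was the most abundant of the rows that rose, with 83.0 FPKM under the volatiles and 43.3 FPKM in controls (log2 fold change 0.94 ± 0.31). Just short of the threshold lay ACS4, which makes the precursor of ethylene, with 3.90 FPKM under the volatiles and 0.948 FPKM in controls (q = 0.0743 in the authors' deposited table).

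**Figure D3:**
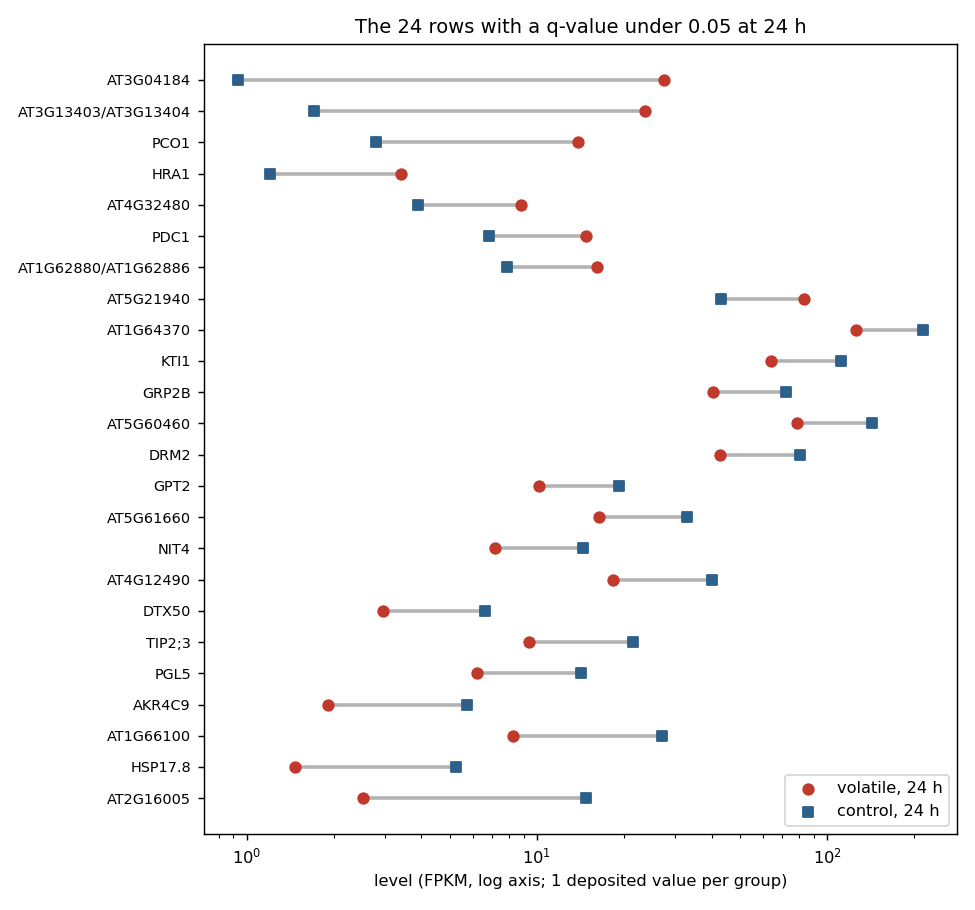
Levels in FPKM, on a log axis, of the 24 rows with a q-value under 0.05 at 24 h, with the volatile group as red circles and the control group as blue squares. Rows are ordered by fold change; the upper 8 have the circle to the right, from AT3G04184 at 27.4 FPKM under the volatiles and 0.933 FPKM in controls, and the lower 16 have it to the left.

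Of the 16 genes that fell, AT2G16005 had the lowest log2 fold change, -2.56 ± 0.56. It encodes a lipid recognition protein related to animal MD-2 and stood at 2.51 FPKM under the volatiles, against 14.8 FPKM in controls, a 5.88-fold difference. AT1G66100, a thionin, one of the small cysteine-rich peptides that attack membranes of microbes, had 8.30 FPKM under the volatiles and 27.0 FPKM in controls (log2 fold change -1.70 ± 0.39). KTI1, a Kunitz-type inhibitor of proteases, had 64.2 FPKM under the volatiles and 111 FPKM in controls. AT4G12490, a proline-rich lipid transfer protein of the EARLI1 and AZI1 cluster on chromosome 4, had 18.3 FPKM under the volatiles and 40.3 FPKM in controls.

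AKR4C9, an aldo-keto reductase that reduces reactive carbonyls, had 1.91 FPKM under the volatiles and 5.73 FPKM in controls (log2 fold change -1.59 ± 0.49). NIT4, the nitrilase that clears β-cyanoalanine formed from cyanide, had 7.17 FPKM under the volatiles and 14.4 FPKM in controls. PGL5, a phosphogluconolactonase of the oxidative pentose phosphate pathway, had 6.20 FPKM under the volatiles and 14.2 FPKM in controls. GPT2, which carries glucose 6-phosphate into plastids and is induced by sugar, had 10.13 FPKM under the volatiles and 19.2 FPKM in controls. These 4 genes were between 1.89-fold and 3.00-fold lower under the volatiles.

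TIP2;3, a vacuolar aquaporin of roots that also passes ammonia, had 9.42 FPKM under the volatiles and 21.5 FPKM in controls. DTX50, a transporter of the MATE family that exports abscisic acid, had 2.94 FPKM under the volatiles and 6.61 FPKM in controls. The cytosolic small heat shock protein HSP17.8 had 1.47 FPKM under the volatiles and 5.27 FPKM in controls (log2 fold change -1.84 ± 0.55). DRM2, a dormancy-associated protein, had 42.6 FPKM under the volatiles and 80.6 FPKM in controls. GRP2B, a cold shock domain protein rich in glycine, had 40.5 FPKM under the volatiles and 72.2 FPKM in controls.

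The remaining 3 genes were AT5G61660, a glycine-rich protein, AT5G60460, a Sec61-beta subunit of the protein translocation channel, and AT1G64370, a protein without a known role. AT5G61660 had 16.4 FPKM under the volatiles and 32.9 FPKM in controls. AT5G60460 had 78.7 FPKM under the volatiles and 143 FPKM in controls. AT1G64370 had 126 FPKM under the volatiles and 214 FPKM in controls, the smallest fold change of the 24 rows at -0.77 ± 0.27. Of the rows next to the called ones along the chromosomes, 48 in number, 0 were called and 1 had an unadjusted p-value under 0.05. That one is EARLI1, beside AT4G12490, with 526 FPKM under the volatiles and 707 FPKM in controls.

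Of 16 thionins and plant defensins 11 averaged 1 FPKM or more, 1 of them fell against 0.0899% of all tested rows, 0 rose, and each of the 11 had a value below 0, as did 9859 of the 17797 rows with a fold change. Their median log2 fold change was -0.72, but -0.30 among members with a mean of at least 5 FPKM. PDF2.5 had 131 FPKM under the volatiles and 284 FPKM in controls, and PDF2.1 had 23.7 FPKM under the volatiles and 39.1 FPKM in controls, both at an unadjusted p-value under 0.05. With AT1G66100, 3 of the 11 were lower at that level, against 1.99% of all tested rows. PDF1.2a, the usual marker of jasmonate and ethylene defence, had 1.58 FPKM under the volatiles and 3.56 FPKM in controls, with an unadjusted p of 0.1271 in the authors' deposited table. PDF1.2a, PDF1.2b and PDF1.2c are near-identical copies, so reads between them are uncertain. In the EARLI1 and AZI1 family 1 of 10 members fell and 3 others, AIR1, EARLI1 and AT4G12545, lay on the lower side with an unadjusted p-value under 0.05, against 0.0899% and 1.99% of all tested rows and around a median of -0.42. AZI1, needed for systemic priming by azelaic acid, had 484 FPKM under the volatiles and 499.9 FPKM in controls.

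The hormone pathways of defence showed 0 calls, which at 0.135% of all tested rows called says little for lists of this size. In the jasmonate list of 23 measured genes, VSP1, a storage protein induced by jasmonate, had 1.10 FPKM under the volatiles and 3.604 FPKM in controls (unadjusted p = 0.0004 in the authors' deposited table). The JAZ repressors JAZ9 and JAZ10 also had lower levels with an unadjusted p-value under 0.05, with JAZ9 at 23.6 FPKM under the volatiles and 36.1 FPKM in controls. In all 3 of the 23 were lower at that level, against 1.99% of all tested rows. Of 16 salicylic acid genes only GRXS13, a glutaredoxin of that pathway, passed an unadjusted p-value of 0.05, against 2.97% of all tested rows. It had 42.9 FPKM under the volatiles and 81.8 FPKM in controls. The list of pattern-triggered immunity, 20 measured genes, had 0 at an unadjusted p-value under 0.05. Of the aliphatic glucosinolate genes 1 was higher and 1 lower at an unadjusted p-value under 0.05, against 0.972% and 1.99% of all tested rows. MAM1, which lengthens the side chain of aliphatic glucosinolates, had 139 FPKM under the volatiles and 94.4 FPKM in controls (unadjusted p = 0.0041 in the authors' deposited table). FMOGS-OX4, which oxidises the side chain of aliphatic glucosinolates, had 16.1 FPKM under the volatiles and 21.2 FPKM in controls (unadjusted p = 0.0394 in the authors' deposited table). The median was 0.14 over 26 aliphatic and 0.12 over 17 indole glucosinolate genes, with 0 called in either list.

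Of 17 small heat shock proteins 11 reached a mean of 1 FPKM, of which 8 had a value below 0 and 3 above. HSP17.8 fell, and 2 others had an unadjusted p-value under 0.05 on the lower side, against 0.0899% and 1.99% of all tested rows. HSP17.6A, a cytosolic member, had 0.601 FPKM under the volatiles and 5.57 FPKM in controls (q = 0.229 in the authors' deposited table). HSP17.6II, of the same family, had 0.428 FPKM under the volatiles and 3.54 FPKM in controls (q = 0.594 in the authors' deposited table). Both passed the filter through their control values. The other 8 measured members had log2 fold changes between -0.61 and 0.06. The list median was -0.29, and among members with a mean of at least 5 FPKM it was -0.18. Of 21 larger chaperones and heat factors 0 were called and 4 had an unadjusted p-value under 0.05 on the lower side, against 1.99% of all tested rows, among them HSP70 at 14.7 FPKM under the volatiles and 21.3 FPKM in controls. In the cold and touch list of 25 measured genes GRP2B fell, against 0.0899% of all tested rows. The transcription factors ZAT12 and DREB2A had lower levels with an unadjusted p-value under 0.05, against 1.99% of all tested rows. ZAT12 had 8.59 FPKM under the volatiles and 14.5 FPKM in controls.

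Of 25 measured detoxification genes 1 fell, DTX50, against 0.0899% of all tested rows, and 23 had a value below 0. In all 8, DTX50 included, lay on the lower side with an unadjusted p-value under 0.05. That is 32.0% of the list against 1.99% of all tested rows. The list median was -0.34. CYP81D8, a cytochrome P450 induced by xenobiotics, had 1.96 FPKM under the volatiles and 4.38 FPKM in controls. Glucosyltransferases of xenobiotics were among them, with UGT73C5 at 10.2 FPKM under the volatiles and 16.6 FPKM in controls and UGT75B1 at 18.1 FPKM under the volatiles and 28.7 FPKM in controls. Glutathione S-transferases had a median of -0.03 over 30 genes. At an unadjusted p-value under 0.05, 1 was higher, GSTF14, and 2 were lower, GSTU4 and GSTU16, against 0.972% and 1.99% of all tested rows. GSTU24 and GSTU25, members that xenobiotics induce strongly, had 89.3 and 71.7 FPKM under the volatiles and 86.9 and 73.0 FPKM in controls.

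Copper genes are of interest because the series title names copper stress. The copper list holds 37 genes, of copper uptake, delivery and storage and of proteins that bind copper. Of these, 27 had a row of their own at 1 FPKM or more, 7 sat in merged rows, and 0 rose or fell. On the lower side 6 had an unadjusted p-value under 0.05, against 1.99% of all tested rows, on the higher side 0, and the median was -0.19. The lowest of the list was BCB, a blue copper protein (log2 fold change -0.73 ± 0.31, unadjusted p = 0.0011 in the authors' deposited table). COPT1 and COPT2, plasma membrane transporters that take up copper, had 112 and 89.1 FPKM under the volatiles and 170.2 and 125 FPKM in controls. The copper chaperone CCH had 488 FPKM under the volatiles and 689 FPKM in controls, and the metallothionein MT2A had 356 FPKM under the volatiles and 503 FPKM in controls. SPL7, the transcription factor that governs copper deficiency, had a log2 fold change of -0.15 ± 0.28. FSD1, the iron superoxide dismutase that rises when copper is short, had 1367 FPKM under the volatiles and 1152 FPKM in controls, with an unadjusted p of 0.25205 in the authors' deposited table. COPT1, COPT2, CCH and MT2A are abundant transcripts. The median was -0.08 in the rows at 100 to 300 FPKM, which hold COPT1 and COPT2, and -0.10 in the rows at 300 FPKM or more, which hold CCH and MT2A.

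Among the nutrient lists, 0 genes were called, against 0.135% of all tested rows. IMA3, a peptide that signals iron deficiency, had 10.4 FPKM under the volatiles and 25.05 FPKM in controls (q = 0.99 in the authors' deposited table), while the other 28 measured iron deficiency genes each had an unadjusted p-value of at least 0.05. The shoot ferric reductases FRO6 and FRO7 had 17.3 and 8.09 FPKM under the volatiles and 27.1 and 12.7 FPKM in controls, both at an unadjusted p-value under 0.05. The other 7 measured genes of their list, which holds ferritins as well, had values above 0, and its median was 0.15. Of 27 phosphate starvation genes 3 were lower at that level, and of 17 sulfur deficiency genes 2, LSU3 and SULTR4;1, against 1.99% of all tested rows. The median was -0.15 for phosphate starvation, with 19 of 27 members below 0. For sulfur deficiency it was -0.30, with 14 of 17 below 0, against a median of -0.02 over all rows kept. The nitrate reductase gene NIA1 had 87.5 FPKM under the volatiles and 116 FPKM in controls.

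Photosynthesis genes had a median of -0.13 over 54 members, with 0 called and 4 lower at an unadjusted p-value under 0.05, against 1.99% of all tested rows; one was PSAE-2, of photosystem I, at 1241 FPKM under the volatiles and 1807 FPKM in controls. Starch genes had a median of -0.05 over 32 members and 0 called. In the aquaporin list of 28 measured genes TIP2;3 fell, and TIP2;2 and TIP1;1 had lower levels with an unadjusted p-value under 0.05. Over all tested rows 0.0899% fell and 1.99% were lower at that level. TIP2;2 had 102 FPKM under the volatiles and 157 FPKM in controls. Circadian clock genes had a median of -0.01 over 27 members, of which 0 had an unadjusted p-value under 0.05.

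Growth and hormone lists held 0 calls, against 0.135% of all tested rows. Gibberellin and brassinosteroid genes had 4 of 34 members higher at an unadjusted p-value under 0.05 and 0 lower, against 0.972% and 1.99% of all tested rows. BAS1, which inactivates brassinosteroids, had 3.78 FPKM under the volatiles and 2.24 FPKM in controls, and the DELLA repressor GAI had 16.7 FPKM under the volatiles and 12.6 FPKM in controls. Abscisic acid genes had 3 of 29 higher at that level, and 2 of these, CYP707A3 and CYP707A1, break the hormone down. CYP707A1 had 4.63 FPKM under the volatiles and 3.23 FPKM in controls. Flavonoid genes had 2 of 22 higher at that level, AACT1 and MYB111, a regulator of flavonol synthesis. AACT1 is an acyltransferase, and its part in flavonoid synthesis was not tested. Of 50 expansins and xyloglucan enzymes 2 were higher and 3 lower at an unadjusted p-value under 0.05, against 0.972% and 1.99% of all tested rows. EXPA8, which loosens cell walls, was the lowest of them with 36.5 FPKM under the volatiles and 61.4 FPKM in controls (q = 0.121 in the authors' deposited table). Auxin response genes had 1 of 44 at an unadjusted p-value under 0.05 and cytokinin genes 0 of 20, near the 2.97% of all tested rows.

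**Figure D4:**
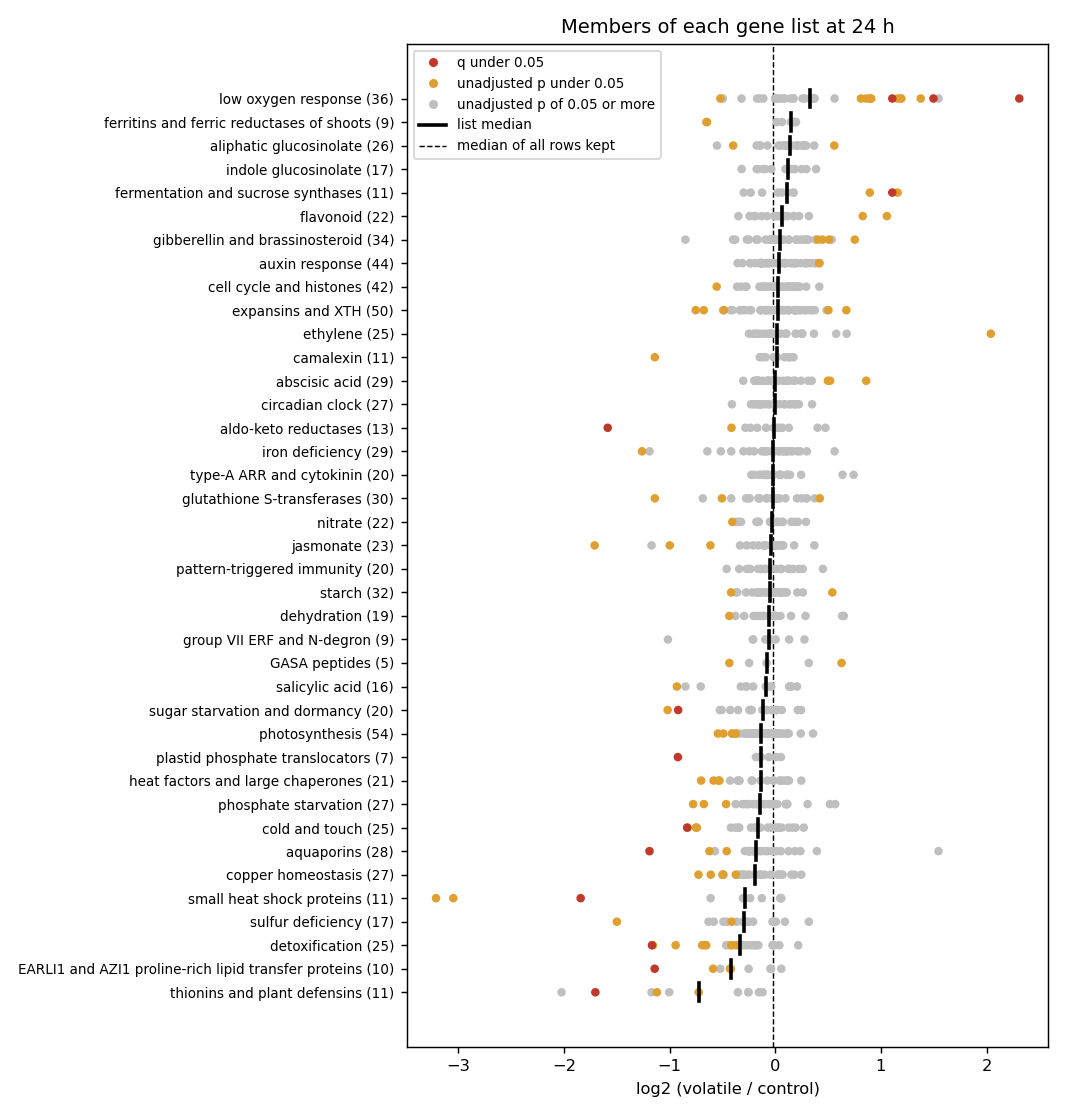
Log2 fold change, volatile over control, at 24 h of each measured member of 39 gene lists, with the number of members in brackets, the list median as a black bar and the median of all rows kept as a dashed line. Red points have a q-value under 0.05 and orange points an unadjusted p-value under 0.05; the low oxygen list has the highest median, 0.33, and the thionin and defensin list the lowest, -0.72.

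The label of whole seedling was checked with 60 markers of 9 cell types of root and shoot. Both organs were present in both groups: the summed level of 9 root hair markers was 147 FPKM under the volatiles and 159 FPKM in controls, and that of 6 mesophyll markers was 41096 FPKM under the volatiles and 42943 FPKM in controls. Of the 60 markers 0 rose, 0 fell and 3 had an unadjusted p-value under 0.05, on the lower side, against 1.99% of all tested rows. These were XCP1, a protease of xylem, CASP1, of the root Casparian strip, and TMM, of the stomatal lineage. XCP1 had 27.0 FPKM under the volatiles and 38.4 FPKM in controls, and the summed level of the 6 xylem markers was 74.7 FPKM under the volatiles and 94.4 FPKM in controls. Of the 6 seed storage markers 0 reached 1 FPKM. The part of cell makeup in the calls was not tested.

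A value of 0 in one group was listed for 39 rows, 17 under the volatiles and 22 in controls, and 30 of the 39 were not tested. AT3G08520, a gene of a ribosomal protein that every cell needs, was listed at 0 in controls, so such zeros are given as listed and no fold is drawn from them.

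The other times served to show where 24 h differs. Of the 24 rows 3 passed a q-value of 0.05 at 3 h, where 0.111% of tested rows did, and 5 at 48 h, where 0.272% did. PCO1, HRA1 and PDC1 also rose at 3 h, and PCO1, PDC1 and the merged AT3G13403 row at 48 h, with PCO1 at log2 fold changes of 2.22 ± 0.44, 2.31 ± 0.41 and 2.27 ± 0.38 at 3, 24 and 48 h. Of the 8 rows that rose at 24 h 5 had a value above 0 at 3 h and 8 at 48 h. Of the 16 that fell 11 had a value below 0 at 3 h and 10 at 48 h. AT3G04184 had log2 fold changes of 0.22 ± 1.19, 4.88 ± 0.61 and 0.11 ± 0.94 at 3, 24 and 48 h, and the merged AT3G13403 row -1.34 ± 1.01, 3.78 ± 0.44 and 4.68 ± 0.93. DRM2 fell at 24 h and at 48 h, whereas AT4G12490, lower at 24 h, rose at 48 h.

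Tests of the difference between fold changes, two-sided normal tests on the implied errors with Benjamini-Hochberg adjustment, passed 0 of 16110 rows for 24 h minus 3 h (0%) and 1 of 16185 for 24 h minus 48 h (0.00618%). At an unadjusted p-value under 0.05 stood 48 rows for 24 h minus 3 h and 72 for 24 h minus 48 h. The one is AIG1, a defence gene outside the calls at 24 h, with a log2 fold change of -1.52 ± 0.51 at 24 h and 4.02 ± 0.56 at 48 h. Rows merging several genes were not in these tests, among them the called rows of AT3G13403 and of AT1G62880. The AT1G62880 row had log2 fold changes of 1.03 ± 0.31 at 24 h and -0.83 ± 0.31 at 3 h. For the called genes that were tested the smallest adjusted p was 0.117, held by AT4G12490 and AT3G04184 for 24 h minus 48 h. Among the rows tested, 24 h and 3 h are set apart at an unadjusted p-value under 0.05 by AT4G32480 (0.000328) and AT2G16005 (0.000685), among others. Fewer rows stood at an unadjusted p-value under 0.05 than that threshold would pass with no difference between times. The implied errors can be wider than those behind the calls, so the test can miss differences. So the rows called at 24 h were not shown to be particular to that time. The lack of passing rows does not show that the times are alike.

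**Figure D5:**
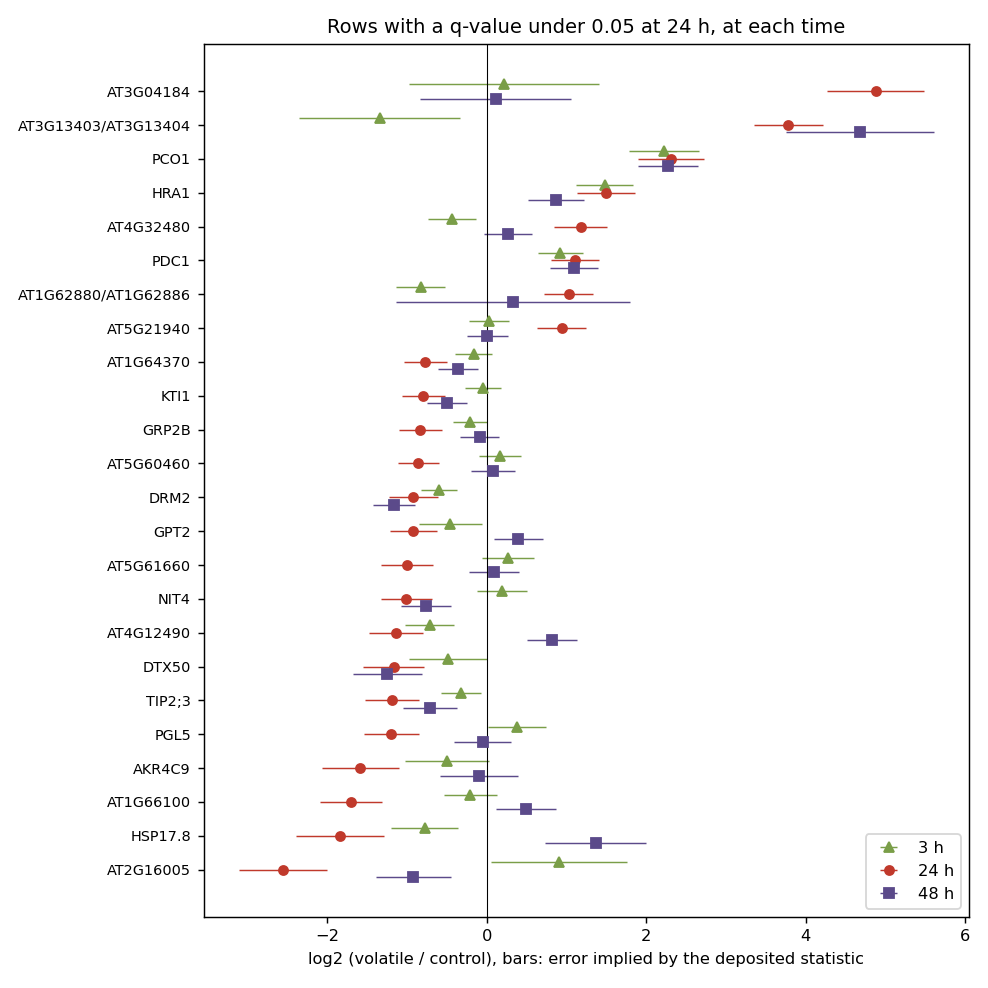
Log2 fold change, volatile over control, at 3, 24 and 48 h for the 24 rows with a q-value under 0.05 at 24 h, with bars for the error implied by the deposited statistic. PCO1 stands at 2.22, 2.31 and 2.27 across the times, whereas AT3G04184 stands at 0.22, 4.88 and 0.11.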

How the data were processed

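RNA came from whole seedlings. Trimmomatic 3.6 and TopHat were used on the TAIR10 build, per the submitters' processing notes. For the tool that wrote the tables, a name was not given in the sources used here, and the headers match Cuffdiff output. The authors deposited FPKM values, 1 per row and group. The p-values, the q-values and the test statistic, a score, are the authors' deposited ones. Depth is unknown.

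From these, log2 fold changes were recomputed without a pseudocount, since part of the deposited column could not be read. No value per library exists in the tables, so the limma fit named as a possibility in the design, the omission of libraries and the replicate block were not run. Which spread the deposited p-values measure cannot be seen from the tables, and the libraries of a group may be technical replicates. Benjamini-Hochberg q-values computed again matched the deposited ones to rounding. A fold against 0 is never given. Of the rows kept, 1034 merge several genes and stayed out of the gene lists and of the test between times. The 343 rows of the table without a gene name (1.29%) were left out. Rows next to the filter had means of 1.0004 and 0.999993 FPKM.

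The members of the comparison and the gene lists were chosen with earlier results of these data known. Named genes are each called row, the 10 highest and 10 lowest fold changes among rows averaging at least 5 FPKM and an unadjusted p-value under 0.05, and up to 4 members of each list by smallest p-value. Further members of the low oxygen, N-degron, fermentation, defensin, EARLI1, copper, detoxification, iron and hormone lists, and AIG1 and AT3G08520, were named after their values were seen. Coordinates are those of the table, counted from 1. Of 16722 single-gene rows with a TAIR10.1 gene on the same chromosome, 16722 overlapped it and 2.14% shared its bounds. Promoters were read from the TAIR10.1 RefSeq genome. The test between times was tried on simulated fold changes whose noise was set to the implied errors. That trial cannot show whether those errors are right for the real data. Python 3.11.15, pandas 2.3.3, scipy 1.17.1 and matplotlib 3.10.9 were used.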

Additional observations from a re-analysis of the deposited data

Results flagged for a closer look

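AIG1, a gene induced by bacterial avirulence signals, was singled out because its fold change differed between times in a test of the difference itself. Its log2 fold change at 24 h minus that at 48 h was -5.54 ± 0.76 (adjusted p = 3.69e-09 over 16185 rows, two-sided normal test on the errors implied by the authors' deposited table). At 24 h AIG1 had 0.80 FPKM under the volatiles and 2.30 FPKM in controls. No library values exist, so it is not known how many seedling samples carry the difference. With a mean of at least 5 FPKM asked in both tables the gene drops out of the test.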

How the results depend on the processing

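The count of 24 called rows held within 1.5 times in each alternative but one: it was 24 without a filter or with q-values recomputed over the rows kept, 20 at a mean of at least 5 FPKM, 22 without merged rows and 17 when a log2 fold change of 1 in size was also asked. Reading the deposited statistic as a standard normal deviate gave 12 called rows, of which 5 are among the 24. PCO1 is among those 5, and HRA1 and PDC1 are not. The same reading gave 156 rows in place of 528 at an unadjusted p-value under 0.05. The difference between 24 and 48 h passed 0 rows in place of 1 at a mean of at least 5 FPKM. Of 824 recomputed fold changes of 206 named genes 817 moved by no more than the implied error and 0 called ones changed sign. Of 336 list medians 314 moved by no more than 0.1. Centring and quantile normalization shifted the median of all rows by 0.025 and 0.029.

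List medians that moved further were these. At a mean of at least 5 FPKM the median was 0.17 for the low oxygen list, -0.30 for thionins and defensins, -0.18 for small heat shock proteins, -0.019 for the larger chaperones, -0.14 for root hair and 0.037 for root stele markers. The mean in place of the median was 0.49 for low oxygen, 0.28 for fermentation, -0.22 for jasmonate, -0.19 for salicylic acid, -0.036 for ferritins and ferric reductases, -0.86 for small heat shock proteins, -0.22 for sugar starvation, -0.13 for aldo-keto reductases, 0.036 for GASA peptides, 0.15 for ethylene, -0.11 for endodermis, -0.063 for root cap and -0.12 for trichome markers. Thionins and defensins stood at -0.86 without a filter, root stele markers at -0.16 with 1 FPKM added, and mesophyll markers at -0.049 after quantile normalization. The causes were not tested. Of 30 list medians that changed sign, each lay within 0.28 of 0.

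No paired analysis was possible because the tables hold 1 value per group and none per library; for the same reason no replicate could be left out. Depth, library spread and batches cannot be examined, the implied error is wider than the deposited p-values imply, and the 24 h calls all sit at the smallest p-value the authors' test gave, so their order is unknown.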

Other observations

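Genes whose RefSeq product names a glycine-rich protein were singled out after AT5G61660 and GRP2B were seen among the calls, so the counts describe and support nothing. Of 41 such genes averaging 1 FPKM or more 31 were below 0 and 10 above. Of them 2 fell, against 0.0899% of all tested rows. By the authors' deposited p-values under 0.05, unadjusted, 9 were lower and 0 higher, against 1.99% and 0.972% of all tested rows. Their median log2 fold change was -0.20, against -0.02 over all rows kept.

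Further rows outside the gene lists stand among the highest and lowest fold changes. AT1G70880, of a lipid transport superfamily, had 3.81 FPKM under the volatiles and 8.73 FPKM in controls. AT3G52105, annotated as similar to an exonuclease, had 11.5 FPKM under the volatiles and 4.50 FPKM in controls. Rows without a gene name held 0 calls by the authors' deposited table among 313 tested, and 7 had an unadjusted p-value under 0.05.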
